A study of Mus musculus with 44 samples.

Results

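The genes described here are 48 genes of DNA replication and S phase, listed by name, among 21099 genes counted in single cells of mouse small-intestinal organoids. All 48 had a row in the count table of the organoids given RANKL alone, and 39 of the 48 were among the 9257 genes of the table of organoids given RANKL with CSRM617. The other 9 (Orc1, Cdt1, Gins2, Gins3, Pold1, Tk1, Chaf1a, Chaf1b and Slbp) were not analysed here in that arm. All plates came from a single organoid line, grown from a female mouse with an Lgr5 GFP-DTR/+ genotype, in which a reporter and the diphtheria toxin receptor sit at the stem cell gene Lgr5. Every group had first spent 3 days in medium with EGF, noggin and R-spondin (ENR) plus 3 µM CHIR99021, an inhibitor of the kinase GSK3, and 1.5 mM valproic acid, an inhibitor of histone deacetylases, and then a day in ENR alone. From day 0 the medium held 100 ng/mL RANKL, the cytokine that induces the antigen-sampling M cells of the gut, or RANKL and 40 µM CSRM617, a compound that blocks ONECUT2 (a transcription factor); it was renewed every 3 days. Days 0 to 9 of the RANKL arm were sampled with 3 plates each, and days 0 to 6 of the RANKL+CSRM617 arm with 2 plates each.

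DNA replication starts when the origin recognition complex with Cdc6 and Cdt1 loads the MCM helicase on DNA in G1, and when Cdc45 and the GINS complex turn that helicase on in S phase. Primase and polymerase alpha then start each strand, polymerases delta and epsilon extend it on the sliding clamp PCNA, and nucleotide synthesis and histone chaperones supply the new strand. Many of these genes are transcribed at the G1 to S transition under E2F factors and their partner pocket proteins. In the intestine they mark the dividing stem and transit-amplifying cells of the crypt, while enterocytes, M cells and Paneth cells have left the cycle.

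Promoter sequences are shown for the letters that E2F factors are known to bind, which many members held and few other genes did. Of the 48 members, 39 had a promoter in the RefSeq table (GRCm38.p6), which spans 250 bases before and 50 after the start of each gene. The letters searched on both strands were TTTCCCGC, TTTGGCGC, TTTGCCGC and TTTCGCGC, and overlapping matches were each counted. Some genes had more than 1 start, and a match in any of their promoters counted. Of the 39 members, 17 held at least 1 match (43.6%), against 2.6% of the 27025 genes of the promoter table and 5.06% of the 7942 genes with a promoter that were tested in the RANKL arm. Lig1, Mcm7 and Uhrf1 had matches in only 1 of their promoters. A match describes the letters only; binding was not measured. The 4 promoters with matches shown first belong to members whose changes are described further on, and that of Pcna is shown because the most counted member held none of these letters in this window. They run 5' to 3' in the direction of the gene, with the E2F letters in capitals (merged where matches overlap). Mcm5 lies at chr8:75109259-75109558, plus strand; Mcm6 at chr1:128359656-128359955, minus strand; Rfc3 at chr5:151651159-151651458, minus strand; Hells at chr19:38930740-38931039, plus strand; Pcna at chr2:132253131-132253430, minus strand.
Mcm5: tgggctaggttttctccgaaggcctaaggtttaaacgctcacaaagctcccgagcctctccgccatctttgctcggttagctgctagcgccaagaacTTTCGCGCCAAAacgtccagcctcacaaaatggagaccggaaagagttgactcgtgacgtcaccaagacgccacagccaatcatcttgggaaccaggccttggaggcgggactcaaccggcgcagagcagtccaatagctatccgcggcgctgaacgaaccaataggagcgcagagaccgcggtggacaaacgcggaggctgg
Mcm6: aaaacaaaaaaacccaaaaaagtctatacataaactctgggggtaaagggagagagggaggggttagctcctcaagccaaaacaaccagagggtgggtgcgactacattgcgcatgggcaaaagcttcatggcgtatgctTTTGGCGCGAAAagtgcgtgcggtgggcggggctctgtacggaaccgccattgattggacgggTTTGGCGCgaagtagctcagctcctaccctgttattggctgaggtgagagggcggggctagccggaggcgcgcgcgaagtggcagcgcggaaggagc
Rfc3: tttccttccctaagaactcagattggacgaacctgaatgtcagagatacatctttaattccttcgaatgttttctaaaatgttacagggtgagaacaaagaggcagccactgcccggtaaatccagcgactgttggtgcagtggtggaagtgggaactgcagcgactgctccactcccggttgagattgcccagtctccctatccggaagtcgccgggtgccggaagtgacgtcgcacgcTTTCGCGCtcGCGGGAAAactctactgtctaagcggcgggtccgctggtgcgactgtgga
Hells: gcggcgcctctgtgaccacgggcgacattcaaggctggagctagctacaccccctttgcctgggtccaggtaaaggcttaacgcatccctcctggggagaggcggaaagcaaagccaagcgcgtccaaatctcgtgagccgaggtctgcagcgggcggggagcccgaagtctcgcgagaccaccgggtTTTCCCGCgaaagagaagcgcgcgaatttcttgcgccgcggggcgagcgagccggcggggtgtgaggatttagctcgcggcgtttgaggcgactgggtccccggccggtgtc
Pcna: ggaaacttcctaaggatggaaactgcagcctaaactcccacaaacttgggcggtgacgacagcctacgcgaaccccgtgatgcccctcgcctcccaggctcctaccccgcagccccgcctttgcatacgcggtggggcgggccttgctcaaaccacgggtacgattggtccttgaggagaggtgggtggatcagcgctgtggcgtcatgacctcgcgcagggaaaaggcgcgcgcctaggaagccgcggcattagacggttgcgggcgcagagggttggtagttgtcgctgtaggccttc

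In Mcm5, a subunit of the replicative helicase, the matches began 153 and 149 bases before the start and lay on opposite strands. Mcm6, another subunit, held 3 matches, at 110, 106 and 47 bases before the start, and Rfc3, a subunit of the clamp loader, held 2 at its start. Hells, a chromatin remodeller of the lymphoid-specific helicase family, held 1 match on the sense strand, 62 bases before the start. Mcm3 and Mcm7 also held 2 matches each, and Cdc6, Cdt1, Clspn, Dtl, Gins3, Lig1, Orc1, Pola1, Pold1, Pole2 and Uhrf1 held 1. The letters CCAAT, the site of the factor NF-Y on either strand, stood in a promoter of 66.7% of the members, against 43.6% of the tested genes. The letters TTTGAA or TTCGAA, which mark genes of G2 and mitosis (the CHR element), stood in a promoter of 20.5% of the members and of 16.7% of the tested genes. Over all 27025 genes of the promoter table the share was 21.7%, above that of the members. These shares are of genes that had a promoter.

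After wells with under 1000 UMIs (unique molecular identifiers, each standing for 1 RNA molecule) were left out, the RANKL arm held 6558 cells (26 to 282 on a plate) and the RANKL+CSRM617 arm 1673 (24 to 223 on a plate). The sum of a plate was 155940 to 1640523 UMIs in the RANKL arm and 47976 to 835772 in the other. Nothing in the labels ties plates to cultures of their own, and the p-values therefore rest on differences from plate to plate that may be technical. The arms were separate plates in separate tables with different gene rows, so the inhibitor and the experiment cannot be told apart. Plates of later days without RANKL were not analysed here, so that a change from day 0 joins RANKL with time in culture and with the change of medium. Genes of other tissues (blood, endothelium, stroma) took at most 0.000841% of the UMIs of any RANKL plate, while 6 epithelial genes took 0.231% to 0.334% by day in the RANKL arm. In sums over cells, fewer cells in S phase and less RNA of these genes per cell cannot be told apart.

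The share of RNA that came from the members was lowest on day 3 of RANKL, back near its day 1 value on day 4 and highest on day 7. On day 1 they gave 0.369%, 0.414% and 0.434% of all UMIs of the 3 plates, and on day 3 they gave 0.203%, 0.203% and 0.199%. On day 4 the plates stood at 0.413%, 0.365% and 0.442%, and on day 7 at 0.555%, 0.474% and 0.539%. The plates of day 3 lay below all plates of the other 9 days. The ratio of the mean share on day 3 to that on day 1 was 0.497 ± 0.0412 (SD carried over from the plates, n = 3 and 3), and that of day 7 to day 3 was 2.59 ± 0.214. On day 9 the share was back at 0.357% ± 0.0215 (SD, n = 3), beside 0.362% ± 0.0651 on day 0.

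**Figure D1:**
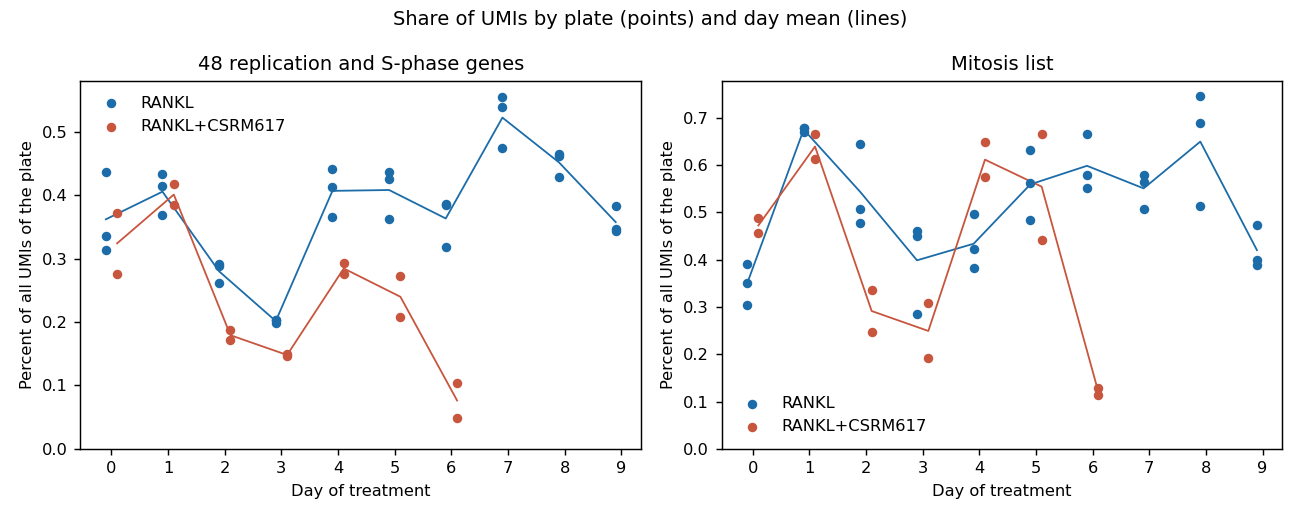
Share of all UMIs of each plate (percent, vertical axis) taken by the 48 members (left; 39 of them in the RANKL+CSRM617 table) and by a list of mitosis genes (right; 45 genes in the RANKL table, 44 in the other) on each day of treatment (horizontal axis). Points are plates and lines join day means; member shares were lowest on day 3 in the RANKL arm, at 0.199% to 0.203%, and on day 6 in the RANKL+CSRM617 arm, at 0.0487% and 0.104%.

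Shares of cells moved with the shares of UMIs. Each cell was thinned to 1000 UMIs, so that deeper cells did not count more. On day 1 of RANKL 54.5% ± 4.64 of cells (SD, n = 3 plates) had 3 or more member UMIs, on day 3 24.4% ± 1.46, and on day 7 61.3% ± 1.28 (without thinning 91.1%, 70.5% and 92.8%). Cells with 6 or more member UMIs were 31.5% of cells on day 1, 10.1% on day 3 and 34.9% on day 7, pooled over plates. Cells without any were 15.9%, 37.8% and 8.65% on those days. In the RANKL+CSRM617 arm the share of cells with 3 or more was 48.8% ± 6.43 on day 1 (SD, n = 2), 14.9% ± 0.463 on day 3, 31.1% ± 8.63 on day 4 and 4.61% ± 1.19 on day 6.

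Among the 44 members that passed the filter on low counts in the RANKL arm, 40 differed among the 10 days (edgeR's quasi-likelihood test, Benjamini-Hochberg adjusted over all 10000 genes tested), where 58.6% of all tested genes did. The 4 without a call were Gins3, Gins4, Fen1 and Pold2. The 4 members below the filter were Cdt1 with 19 UMIs over all RANKL plates, Gins2 with 25, Tk1 with 13 and Orc1 with 65, too few to describe by day. The daily mean was lowest on day 3 for 34 of the 44 and highest on day 7 for 30 of them. The ratio of a member's highest to its lowest daily mean had a median of 2.77 and ran from 1.51 to 6.88.

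**Figure D2:**
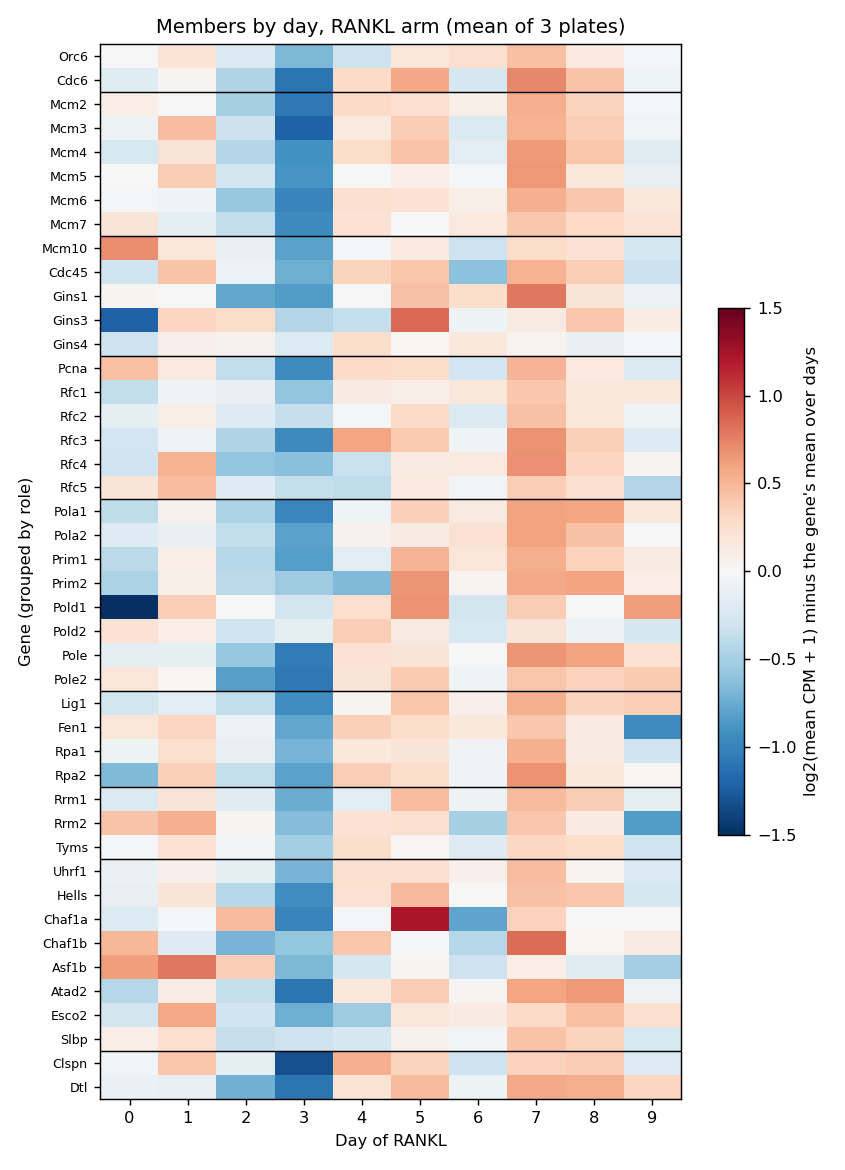
Mean level of the 44 tested members on each day of RANKL, as log2(mean CPM + 1) minus the gene's mean over the 10 days (color scale; red higher, blue lower); rows are genes grouped by role, with lines between roles, and columns are days. The column of day 3 is the lowest for 34 of the 44 genes and the column of day 7 the highest for 30.

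On day 1 of RANKL against day 0, 9 of the 44 members rose and none fell, where 11.4% of all tested genes rose and 12.3% fell. The members' median log2 fold change was 0.33, beside 0.00 for all tested genes. Pold1, the catalytic subunit of polymerase delta, was at 4.6, 0 and 4.76 CPM (share of the plate sum times 1e6, scaled by TMM) on day 0 and at 20, 15.3 and 16.5 CPM on day 1. The 3 plates of day 1 lay above those of day 0, and the log2 fold change was 1.98 ± 0.43 (SE; adjusted p = 0.000637, edgeR). Cdc45, which joins the MCM ring to form the active helicase, went from 23, 38.5 and 25.7 CPM to 44.3, 60.4 and 42.3 CPM, a log2 fold change of 0.92 ± 0.27 (adjusted p = 0.0115). Rpa2, a subunit of the single-strand binding protein, went from 29.4, 19.2 and 33.3 CPM to 58, 52 and 58.8 CPM, and its plates did not overlap either (0.90 ± 0.21, adjusted p = 0.00144). Rfc4, Rpa1, Prim1, Atad2, Mcm3 and Mcm4 also rose, by 0.49 to 0.83. The call of Prim1 was lost in 10 settings and that of Rpa1 in 5, both in DESeq2 among others. That of Cdc45 was lost in 3 settings and that of Rfc4 in 2. Day 0 held a plate of only 26 cells. Without plate 3 of day 0, 3 members passed, and without plate 2 of day 1, 5 did.

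From day 1 to day 3 of RANKL, 36 of the 44 tested members fell and none rose, where 8.96% of all tested genes fell and 9.34% rose. The median log2 change of the members was -0.96, beside 0.01 for all tested genes, and all 44 had a lower mean on day 3. The fall took in every role. Of licensing factors, the 2 tested members fell. Cdc6, which loads the helicase, was at 18.1, 33.6 and 32.3 CPM on day 1 and at 14.2, 18.9 and 3.46 CPM on day 3, so that the days overlapped in 1 plate (-1.20 ± 0.34, adjusted p = 0.0112). Orc6, a subunit of the origin recognition complex, went from 50.5, 58.9 and 60.3 CPM to 31.9, 28.4 and 30.5 CPM, without overlap.

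All 6 MCM subunits fell from day 1 to day 3. Mcm3 was at 123, 169 and 144 CPM on day 1 and at 42.7, 53.7 and 38.1 CPM on day 3, with a log2 fold change of -1.70 ± 0.18 (adjusted p = 1.42e-08). Mcm5 went from 123, 138 and 126 CPM to 50.2, 66.3 and 43 CPM, a change of -1.29 ± 0.14 (adjusted p = 4.03e-08). Mcm6 went from 114, 135 and 155 CPM to 61.1, 79.7 and 67.9 CPM (-0.95 ± 0.15, adjusted p = 1.79e-05). In each of the 3 genes the plates of day 3 lay below all those of day 1. Mcm2, Mcm4 and Mcm7 changed by -0.83 to -1.11. Of the factors that switch the helicase on, Cdc45, Gins1 and Mcm10 fell, and Gins3 and Gins4 had changes of -0.84 and -0.28 without passing the test.

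Pcna, the sliding clamp and the most counted member (24309 UMIs over the RANKL plates), was at 772, 838 and 933 CPM on day 1 and at 361, 369 and 460 CPM on day 3. The days did not overlap, and the log2 fold change was -1.09 ± 0.16 (adjusted p = 8.05e-06). Of the 5 clamp loader subunits, Rfc1, Rfc3, Rfc4 and Rfc5 fell, by 0.53 to 1.18 on the log2 scale, and Rfc2 did not pass (-0.43 ± 0.20, adjusted p = 0.126). Of the 8 polymerase and primase genes, Pola1, Pola2, Prim1, Pole and Pole2 fell. Pola1, the catalytic subunit of polymerase alpha, went from 61.1, 63.4 and 66.7 CPM to 32.6, 27.6 and 31.2 CPM (-1.06 ± 0.22, adjusted p = 0.000845). Prim2 (-0.63 ± 0.26) and both delta subunits were without a call, Pold1 at -0.71 ± 0.31 and Pold2 at -0.26 ± 0.25.

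The members that finish the lagging strand and cover single strands (Lig1, Fen1, Rpa1 and Rpa2) all fell, by 0.77 to 1.18 on the log2 scale. Fen1, the flap endonuclease, had few counts, and its plates came close without overlap, at 40.5, 17.6 and 21.5 CPM on day 1 and 17, 3.95 and 14.6 CPM on day 3. Its call was lost in 6 settings, DESeq2 among them. In nucleotide supply Rrm1, Rrm2 and Tyms fell. Rrm2, the small subunit of ribonucleotide reductase, went from 206, 268 and 221 CPM to 108, 106 and 88 CPM, a change of -1.20 ± 0.16 (adjusted p = 1.71e-06). Rrm1, the large subunit, changed by -0.94 ± 0.16 and Tyms, thymidylate synthase, by -0.73 ± 0.17. The plates of Rrm2 were far apart on the 2 days.

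Of the 8 genes that act on the chromatin of the new strand, 6 fell. Hells went from 266, 327 and 329 CPM to 144, 138 and 139 CPM (-1.13 ± 0.17, adjusted p = 1.38e-05). Asf1b, a histone chaperone, fell by 1.49, Esco2, a cohesin acetyltransferase, by 1.30, Atad2 by 1.21, Uhrf1, which brings the maintenance methyltransferase to hemimethylated DNA, by 0.78, and Slbp, which binds histone mRNA stem loops, by 0.56 on the log2 scale. The 2 chromatin assembly subunits did not pass, Chaf1a at -1.23 ± 0.76 and Chaf1b at -0.43 ± 0.38. Clspn, the checkpoint adaptor claspin, had the largest fall of all members, from 46.8, 75.7 and 71 CPM to 23.1, 11.8 and 20.8 CPM (-1.76 ± 0.28, adjusted p = 2.38e-05). Dtl, the receptor of the ligase that degrades Cdt1, went from 84.8, 125 and 89 CPM to 59, 49.7 and 42.3 CPM (-0.98 ± 0.18, adjusted p = 0.000169). Between these days the calls of Cdc6 and Slbp were lost in 4 settings each. Those of Pole and Rfc3 were lost in 3 settings each, and those of Orc6 and Pola1 in 1 each.

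**Figure D3:**
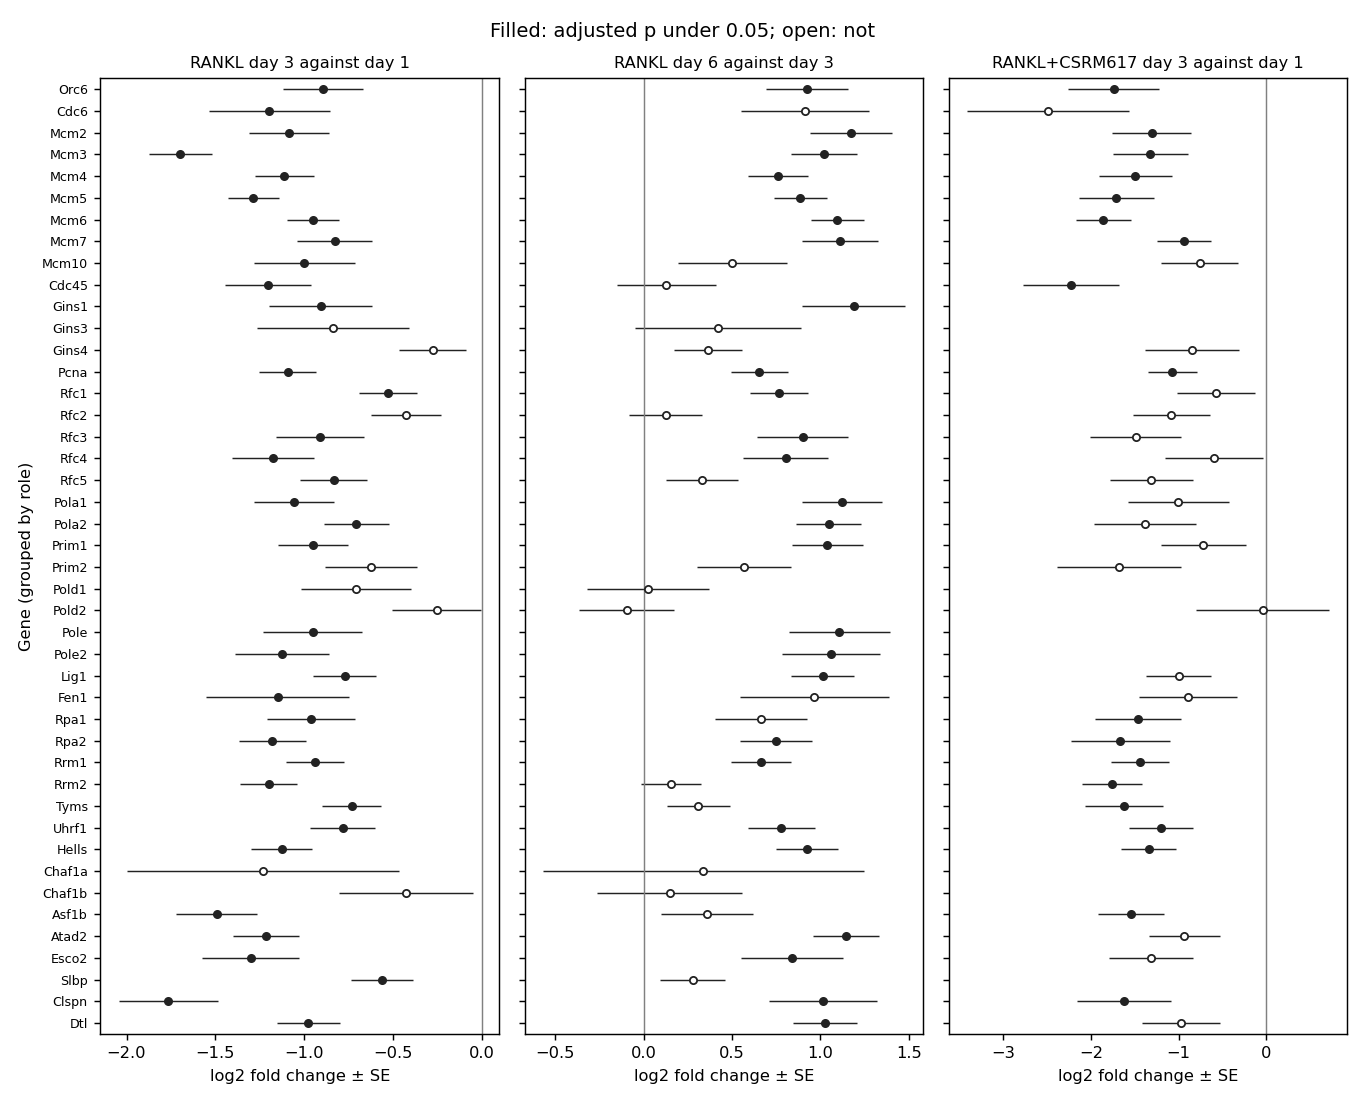
Log2 fold change of each tested member with its SE (horizontal axis) in 3 comparisons; rows are genes grouped by role, filled points passed the test at an adjusted p under 0.05 and open points did not. All points of RANKL day 3 against day 1 lie below 0, and all but that of Pold2 lie above 0 for day 6 against day 3.

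Between day 3 and day 6 of RANKL, 26 of the 44 members rose and none fell, where 13.3% of all tested genes rose and 15.6% fell. The median log2 change of the members was 0.79, beside 0.04 for all tested genes. Again all 6 MCM subunits were among them, by 0.76 to 1.17. Mcm6 rose from 61.1, 79.7 and 67.9 CPM to 147, 150 and 148 CPM, a change of 1.10 ± 0.15 (adjusted p = 5.96e-07). Mcm2 rose from 40, 56.8 and 32.6 CPM to 107, 115 and 69.6 CPM (1.17 ± 0.23, adjusted p = 0.000173). The plates of the 2 days did not overlap in either gene. The largest rise was that of Gins1, a GINS subunit, at 1.19 ± 0.29, and after Mcm2 came Atad2 and Pola1 at 1.14 ± 0.19 and 1.12 ± 0.23.

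The members of nucleotide supply did not rise together between those days. Rrm2 was at 125, 124 and 87 CPM on day 6, so that its plates overlapped those of day 3 and its change was 0.16 ± 0.17 (adjusted p = 0.536). Tyms was at 60.9, 80.7 and 56.6 CPM, a change of 0.31 ± 0.18 (adjusted p = 0.2), while Rrm1 rose by 0.66 ± 0.17 (adjusted p = 0.00296). Rrm2 and Tyms stood higher on day 7, at 228, 195 and 209 CPM and at 92.3, 94.5 and 96.9 CPM. Cdc45 and Asf1b, which had fallen by day 3, were also without a call on day 6, at 0.13 ± 0.28 and 0.36 ± 0.26. Whether their change differed from that of the MCM genes was not tested.

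After day 6, mean levels were higher again on day 7 and lower on day 9. Of the 44 tested members 43 had a higher mean on day 7 than on day 6, and 43 a lower mean on day 9 than on day 7, with median log2 ratios of 0.53 and -0.58 (1 CPM added to each mean). Pcna was at 683, 561 and 629 CPM on day 6, at 1145, 1029 and 1086 CPM on day 7 and at 612, 525 and 836 CPM on day 9. Lig1, the ligase that joins Okazaki fragments, was at 86.5, 108 and 102 CPM on day 6, at 122, 138 and 147 CPM on day 7 and at 142, 104 and 116 CPM on day 9, where it overlapped day 7. Day 9 against day 6 gave no called member in edgeR or DESeq2, with 3 members at an unadjusted p under 0.05, where 1.08% of all tested genes rose and 1.00% fell. Steps between day 6 and day 7 and between day 7 and day 9 were not tested.

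Other genes of the cycle moved on some of the same days. Of 39 tested genes of a list of other replication and repair factors, 7 rose from day 0 to day 1, 27 fell from day 1 to day 3 and 20 rose from day 3 to day 6, none moving the other way. Cdca7, a chromatin factor of the Hells complex, rose by 1.75 ± 0.16 between day 3 and day 6, and Tipin, a fork protection factor, fell by 1.40 ± 0.20 from day 1 to day 3. Of 45 tested mitosis genes, 37 rose from day 0 to day 1, 32 fell from day 1 to day 3 and 14 rose from day 3 to day 6. Their median log2 change on day 1 was 0.96, where that of the members was 0.33. In the list of G1/S control genes, with 29 tested, 7 fell and 3 rose from day 1 to day 3. There Mybl2, a partner of the late cycle complex, changed by -1.98 ± 0.46 and E2f8, a repressor E2F, by -1.23 ± 0.27, while Mycn and the kinase inhibitor Cdkn2b rose by 1.54 ± 0.30 and 0.94 ± 0.15. From day 3 to day 6 E2f2 (-2.77 ± 0.36), Mycn (-2.46 ± 0.36), Cdkn2b (-2.04 ± 0.17) and Cdkn1a, the inhibitor p21 (-1.54 ± 0.24), fell.

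Cell type markers moved over the same days. The 8 stem cell genes took 0.316% ± 0.0429 of UMIs on day 0 (SD, n = 3), 0.699% ± 0.0754 on day 1 and 0.358% ± 0.0381 on day 3. They took 1.03% ± 0.167 on day 6 and 0.968% ± 0.0856 on day 9, so their lowest mean was on day 0, where that of the members was on day 3. The 10 M cell genes took 0.0563% on day 0, 0.419% to 0.515% on days 1 to 3, 0.153% on day 6 and 0.0786% on day 9. The 12 enterocyte genes took 0.975% on day 0, 0.473% on day 1, 1.17% on day 3, 0.154% on day 6 and 0.227% on day 9. The part of cell composition in the changes of the members was not tested.

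With CSRM617, the share of the members was again lower on day 3 than on day 1, and it was lowest on day 6. They took 0.417% and 0.385% of UMIs in the 2 plates of day 1, 0.150% and 0.146% on day 3, 0.294% and 0.275% on day 4, 0.208% and 0.272% on day 5, and 0.0487% and 0.104% on day 6. From day 1 to day 3, 18 of 36 tested members fell and none rose, where 7.25% of the 6499 genes tested in this arm fell and 9.31% rose. The members' median log2 change was -1.32, beside -0.06 for all tested genes. In this arm's own fit the largest falls among the called members were those of Cdc45 (-2.22 ± 0.55, adjusted p = 0.00652), Mcm6 (-1.86 ± 0.31, adjusted p = 0.000174), Rrm2 (-1.76 ± 0.34), Orc6 (-1.74 ± 0.52) and Mcm5 (-1.71 ± 0.43). On the scale of both arms Mcm6 was at 158 and 161 CPM on day 1 and at 45.2 and 46.9 CPM on day 3, and Rrm2 at 216 and 257 CPM and then at 86.6 and 60.3 CPM. The plates of the 2 days did not overlap. The count is less firm than in the RANKL arm, with 9 members in DESeq2, 3 when each cell was weighted equally, and 6, 11, 5 and 6 without plate 1 or 2 of day 1 or plate 1 or 2 of day 3.

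The first and last steps of this arm gave no call. Day 1 against day 0 had no called member in edgeR or DESeq2 and none at an unadjusted p under 0.05 (1 called without plate 1 of day 1), where 2.08% of tested genes rose and 2.29% fell. Day 6 against day 3 had none in either tool and 7 at an unadjusted p under 0.05, all lower, where 0.0923% of tested genes rose and 0.354% fell. The members' median log2 change there was -1.20 as fitted, and -0.90 over 35 members when those without a UMI on day 6 were set at the bound that 3 counts give and 1 member below that floor on both days was left out. Members with 1 to 3 UMIs on day 6 were left as fitted.

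Between the arms, the members did not differ by the test on day 0, when treatment began. None of 39 was called in edgeR or DESeq2, and none had an unadjusted p under 0.05. Of the 8766 tested genes, 2.75% were higher in the RANKL+CSRM617 arm and 7.07% lower, so the arms already lay apart at the start. Among the mitosis genes 14 of 44 were higher in that arm and 1 lower on day 0. On days 1 to 3, 10 of the 39 members were lower with CSRM617 and none higher, where 15.1% of tested genes were lower and 13.4% higher. The members' median difference was -0.32 on the log2 scale, beside 0.00 for all tested genes. Among the called members the 5 largest differences were those of Pole2 (-1.27 ± 0.41, adjusted p = 0.0163), Pola2 (-0.74 ± 0.20), Dtl (-0.70 ± 0.19), Tyms (-0.68 ± 0.18) and Mcm4 (-0.59 ± 0.17), and Mcm3, Mcm5, Lig1, Rrm1 and Rrm2 were lower by 0.43 to 0.57. Weighting each cell equally left 6. The change from day 0 to days 1 to 3 differed between the arms for no member in edgeR, with 6 at an unadjusted p under 0.05, all lower, and 1 called in DESeq2 or without plate 1 of day 3 with CSRM617, where 2.74% of tested genes were higher and 1.36% lower.

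On days 4 to 6, 27 of the 39 members were lower with CSRM617 and none higher, where 13.7% of tested genes were lower and 8.68% higher. The median difference of the members was -1.23 on the log2 scale, beside -0.12 for all tested genes. Mcm5 stood on days 4, 5 and 6 at 96 and 114, 23.4 and 96, and 0 and 0 CPM with CSRM617. On day 6 its 318 UMIs in the RANKL arm stood against none in the other, which makes it at least 7.06-fold lower there, taking 3 counts over the group as the floor. Lig1 stood with CSRM617 at 88 and 75.7, 49.8 and 51.2, and 0 and 9.01 CPM on those days, and its fitted difference over the 3 days was -1.91 ± 0.29 (adjusted p = 4.54e-06). Mcm6 stood at 120 and 132, 96.6 and 96, and 8.76 and 27 CPM, with a difference of -1.35 ± 0.21 (adjusted p = 4.06e-06). In each of the 3 genes the RANKL+CSRM617 plates were lowest on day 6.

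The other roles were called likewise on days 4 to 6. Mcm4 (-1.96 ± 0.30), Pola1 (-1.79 ± 0.41), Rpa1 (-1.65 ± 0.45), Mcm3 (-1.64 ± 0.36), Dtl and Uhrf1 (both -1.55 ± 0.27) and Hells (-1.20 ± 0.20) were lower. On day 6 with CSRM617 Mcm4, Pola1 and Uhrf1 had 3 UMIs each, and Rpa1 and Mcm3 had 1 each. The sizes of the differences of those genes thus rest in part on values at the floor. Pcna stood at 784 and 587, 471 and 621, and 193 and 342 CPM with CSRM617, and its difference was smaller, at -0.75 ± 0.15 (adjusted p = 0.000152). Cdc6, Pole and Esco2 were lower as well, but the difference of Esco2 was 0.16 on days 4 and 5 alone, and its call was lost in 12 other settings. The 3 genes had no UMI on day 6 with CSRM617, where their RANKL counts put them at least 1.64-, 1.86- and 3.93-fold lower. Among the other called members, Mcm2 lost its call in 14 settings and Cdc45 in 8, both on days 4 and 5 alone among others. Rfc1, Rfc4, Rfc5, Mcm10, Prim2, Orc6, Tyms, Fen1, Asf1b, Gins1, Gins4 and Pold2 were without a call, Rfc5 at 0.01 ± 0.28.

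The days were then taken apart. On day 6 alone 21 members were lower and none higher, where 8.05% of tested genes were lower and 9.55% higher. The median difference was -2.14 as fitted and -1.97 with the 4 members that had no UMI set at their bounds. Many other members had 3 or fewer UMIs on day 6 with CSRM617 and were left as fitted. Among them Mcm3, Lig1, Rpa1, Cdc45 and Clspn had 1 UMI each and Prim1 had 2. The value of -1.97 is thus only partly corrected for the floor. On days 4 and 5 alone 8 were lower and none higher, where 8.70% of tested genes were lower and 4.52% higher, and the median was -0.54. Whether day 6 differed from days 4 and 5 was not tested. These 8 were Mcm4, Dtl, Hells, Uhrf1, Pcna, Lig1, Rrm2 and Pola1. The change from day 3 to day 6 with CSRM617 was below that without it for 8 of 39 members and above it for none, where 0.684% of tested genes were lower and 1.69% higher. The members were Mcm3, Mcm5, Mcm6, Mcm7, Pcna, Lig1, Uhrf1 and Atad2. The splits by day and this comparison of changes were added after the data had been seen. That last count was 4 in DESeq2, 1 among cells with 2000 or more UMIs, 13 with each cell weighted equally, and 0 without plate 1 of day 6 with CSRM617, 4 without plate 2 of that day, and 3 and 4 without plate 1 or 2 of day 3.

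**Figure D4:**
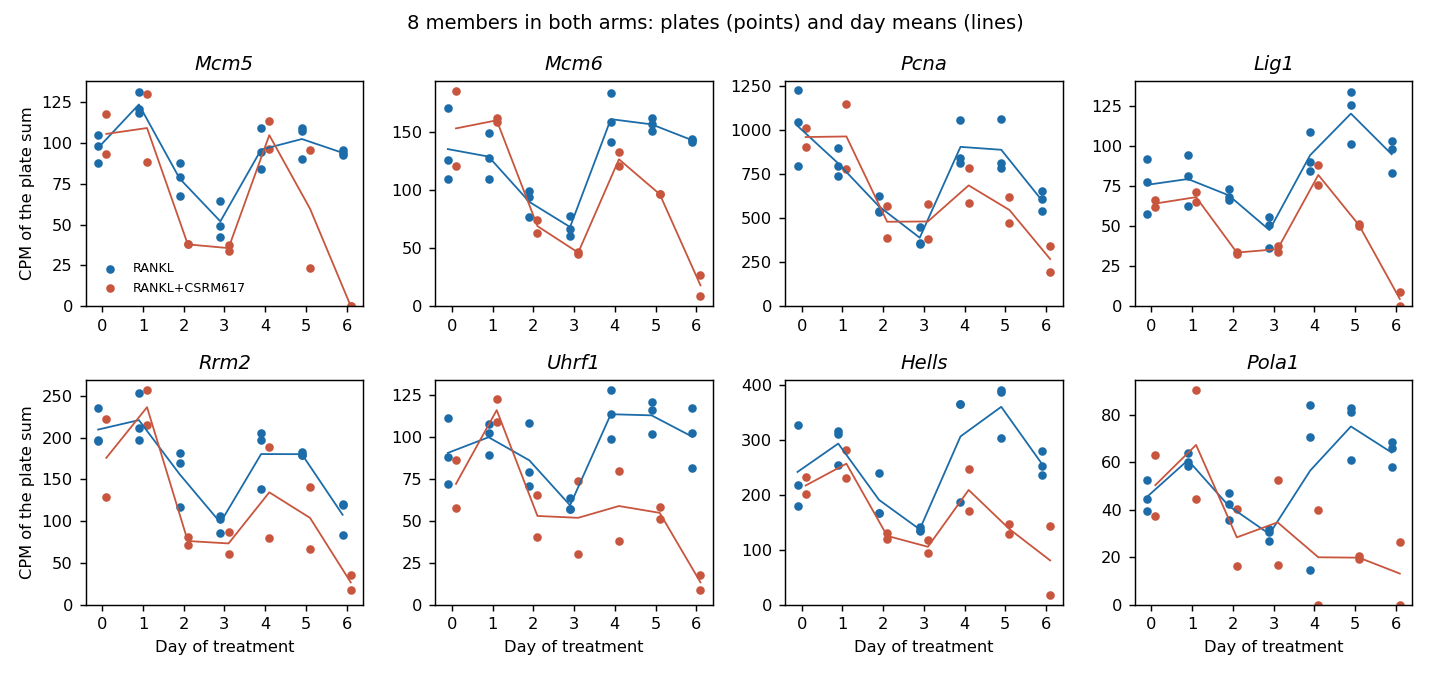
Level of 8 members in both arms (CPM of the plate sum on a TMM scale over both arms, vertical axes starting at 0) by day of treatment; points are plates, 3 a day with RANKL and 2 with RANKL+CSRM617, and lines join day means. On day 6 the RANKL+CSRM617 plates of all 8 genes lie below the RANKL plates.

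Other lists moved in the same plates. On days 4 to 6 all 8 tested stem cell genes were lower with CSRM617, and their share of UMIs on day 6 was 0.145% ± 0.0295 (SD, n = 2), beside 1.03% ± 0.167 (n = 3) with RANKL alone. Of the Paneth genes 4 of 7 were higher, with 0.397% of UMIs on day 6 beside 0.0568%, and of the M cell genes 5 of 8. Of 36 tested genes of other replication factors 17 were lower and none higher, while of 44 mitosis genes 4 were lower and none higher. Split by day, 11 mitosis genes were higher and 1 lower on days 4 and 5, when 8 members were lower, and 23 were lower on day 6. Among G1/S control genes Cdkn1a was higher by 1.14 ± 0.19. Of the called genes of their lists Pole4 and E2f6 differed most, by -5.88 ± 0.68 and -4.18 ± 0.62, and already on day 0 by -3.06 ± 0.43 and -2.39 ± 0.46. The RANKL+CSRM617 plates of day 6 held 108 cells in all. Whether the lower share of stem cell RNA bears on the members' levels was not tested.

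Within the RANKL arm, cells with an Lgr5 UMI held more member RNA than cells without. On days 4 to 9 the members took 0.469% ± 0.0685 of UMIs in cells with Lgr5 (SD, n = 18 plates; 2915 cells) and 0.239% ± 0.0769 in cells without (917 cells). In the test, which used the 17 plates with enough cells of both kinds, all 36 tested members were higher in cells with Lgr5, where 17.2% of 5504 tested genes were higher and 18.7% lower. The other 12 members did not pass the filter on low counts in these sums. The median log2 difference was 0.85, beside 0.01 for all tested genes. The largest were those of Mcm5 (1.23 ± 0.14, adjusted p = 2.23e-08), Asf1b (1.16 ± 0.23), Pola1 (1.11 ± 0.16), Hells (1.07 ± 0.11) and Dtl (1.06 ± 0.14), and the smallest that of Slbp (0.43 ± 0.13). Pcna differed by 0.53 ± 0.08. Cells with Lgr5 were deeper, with a median of 4305 UMIs beside 3401 (2892 and 908 cells), and among cells of matched depth (4862 and 4736) all 31 tested members were higher. On single days the shares were 0.517% ± 0.0603 and 0.214% ± 0.0368 on day 0 (SD, n = 3), 0.296% ± 0.0542 and 0.190% ± 0.00368 on day 3, and 0.555% ± 0.0411 and 0.325% ± 0.0857 on day 7. All 36 tested mitosis genes were higher too, and Cdkn2b (-1.93 ± 0.14) and Cdkn1a (-1.67 ± 0.13) were lower.

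Cells with a UMI of Spib, a transcription factor of M cells, held less member RNA on days 1 to 3. On day 1 of RANKL the members took 0.372% ± 0.0504 of UMIs in cells with Spib (SD, n = 3 plates) and 0.432% ± 0.0257 in cells without, on day 2 0.240% ± 0.0287 and 0.307% ± 0.00781, and on day 3 0.148% ± 0.0127 and 0.232% ± 0.0129. The mean share was thus lower on day 3 than on day 1 both in cells with and in cells without Spib. Of 39 tested members 13 were lower in cells with Spib and none higher, where 4.46% of 7509 tested genes were lower and 5.70% higher. Among the called members Mcm5 differed most (-0.60 ± 0.12, adjusted p = 0.000577), followed by Mcm6 (-0.54 ± 0.11), Pola1 (-0.52 ± 0.13), Mcm7 and Mcm4 (both -0.46 ± 0.10), and Pcna differed by -0.34 ± 0.05 (adjusted p = 3.92e-05). Cells with Spib were the deeper ones, with a median of 6108 UMIs beside 5214. Among cells of 3000 to 10000 UMIs 13 of 38 were lower again, but the medians there still differed, at 6137 and 5594 UMIs. DESeq2 called 6, and cells with 2 or more Spib UMIs gave 27 of 36. Cdkn1a and Cdkn2b were higher in cells with Spib, by 0.67 ± 0.06 and 0.66 ± 0.06.

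In the RANKL+CSRM617 arm the members also took a smaller share in cells with Spib. On day 1 it was 0.351% ± 0.0271 in cells with Spib (SD, n = 2) and 0.414% ± 0.0377 in cells without. On day 2 the members took 0.0845% ± 0.00023 of UMIs in cells with Spib and 0.257% ± 0.0230 in cells without, and on day 3 0.0626% ± 0.00167 and 0.219% ± 0.0156. Of 13 tested members 4 were lower and none higher, where 2.05% of 3507 tested genes were lower and 2.71% higher. They were Hells (-1.33 ± 0.28, adjusted p = 0.0141), Rrm2 (-1.32 ± 0.33), Rrm1 (-1.21 ± 0.28) and Pcna (-0.86 ± 0.19). Without either plate of day 2, or without plate 2 of day 3, none passed, and without plate 2 of day 1 the count was 8. With 2 or more Spib UMIs it was 8 of 9 members, and without a filter on low counts 18. Whether the gap differs between the arms was not tested. On days 4 to 6 of this arm only 8 cells had an Lgr5 UMI, so the comparison by Lgr5 was not made there. On its day 1 the members took 0.475% ± 0.0380 of UMIs in cells with Lgr5 and 0.366% ± 0.00408 in cells without (SD, n = 2).

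**Figure D5:**
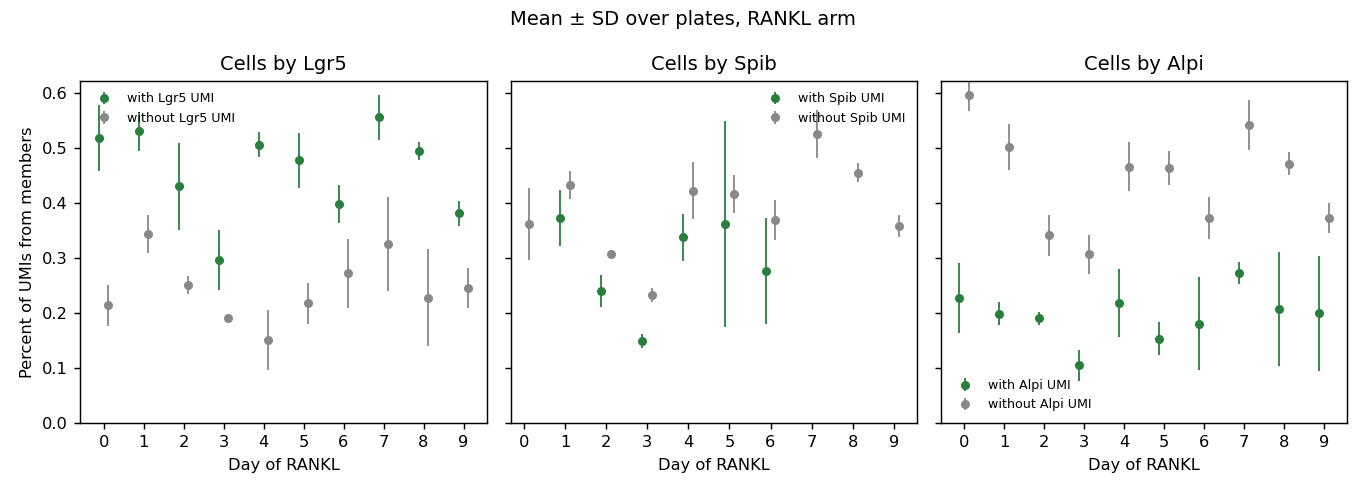
Share of UMIs from the members (percent, mean ± SD over plates of the RANKL arm) in cells with (green) and without (grey) a UMI of Lgr5, Spib or Alpi, by day; a plate entered where it held at least 5 such cells. Cells with Lgr5 lie above cells without on all 10 days, and cells with Alpi below.

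Cells with a UMI of Alpi, the brush border phosphatase of enterocytes, held less member RNA than cells without on each day of the RANKL arm. On day 3 of RANKL the share was 0.104% ± 0.0277 in cells with Alpi (SD, n = 3) and 0.306% ± 0.0358 in cells without, and on day 7 0.273% ± 0.0198 and 0.541% ± 0.0456. In cells without Alpi the share was 0.502% ± 0.0419 on day 1 and 0.306% on day 3. In cells with a UMI of the proliferation marker Mki67 the share stood at 0.534% ± 0.0234 on day 1, 0.380% ± 0.0273 on day 3 and 0.627% ± 0.0642 on day 7. Cells with Mki67 were 407 of 737 on day 1 and 233 of 810 on day 3. These shares by marker are given as values, without a test.

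Across the single cells of the RANKL arm, members went with each other more than genes outside the cell cycle lists did. Each gene's log level was centred within its plate and correlated with the sum of the members (without the gene itself), over 6558 cells that share libraries and differ in depth, so that the values are a description. The 44 members had a median r of 0.330, from 0.118 (Chaf1a) to 0.597 (Hells), where 10810 genes outside the members and the cell cycle lists had a median of 0.020. The lists most like the members came near them, with medians of 0.278 for 39 other replication genes and 0.240 for 45 mitosis genes. Pcna stood at 0.554, Rrm2 at 0.532, Mcm6 at 0.527, Mcm4 at 0.525 and Mcm5 at 0.510. Against the sum of mitosis genes, Rrm1 (0.450), Esco2 (0.448) and Rrm2 (0.410) had the highest values of the members, and Cdc6 (0.124) and Mcm2 (0.174) low ones, with 0.468, 0.339, 0.532, 0.335 and 0.409 for the same genes against the member sum. Outside the members the 10 closest genes were Ptma (0.516), Ncapg2 (0.497), Dut (0.494), Dek (0.492), Tuba1b (0.489), Tubb5 (0.483), Stmn1 (0.482), Top2a (0.481), Topbp1 (0.479) and Hsp90aa1 (0.472). The most negative of the G1/S control genes were Cdkn2b (-0.338) and Cdkn1a (-0.301), and in the RANKL+CSRM617 cells these stood at -0.277 and -0.233, where the members' median was 0.294. In those cells the mitosis genes had a median of 0.278, and the mitosis gene Top2a ranked first, at 0.539.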

How the data were processed

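Single cells of organoids were placed in multi-well plates by a scatter gate and made into CEL-Seq2 libraries, which read 3' ends, per the labels' protocols. The deposited tables hold raw UMI counts per gene and well. The submitters' processing notes name kallisto, bustools, Seurat 3.1.5 and GRCm38; the first 2 carry no version in those notes. Wells with at least 1000 UMIs were kept (6558 of 6636 and 1673 of 1903) and summed by plate, the replicate. No doublet caller was run on the sorted wells. Sums were tested with edgeR 4.0.16 (filterByExpr, TMM, quasi-likelihood, adjusted p under 0.05; R 4.3.3) over all days of an arm, or over both arms on the 9230 shared genes; cells by marker were summed per plate with the plate as a term, from at least 10 cells per sum. The SE is the log2 fold change over the square root of F. DESeq2 1.42.0 and limma 3.58.1 (log2 of mean CPM plus 5, each cell weighted equally) were alternatives, with no low-count filter, cells of 2000 or more UMIs, the sums without the most abundant gene, a replicate block, the L number in the RANKL+CSRM617 plate names as a term, and each plate left out. The most abundant gene model took 10.8% and 14.4% of UMIs. The code was tested on simulated data. Members named were a fixed set by role, plus in each comparison the 5 called members of largest rise and fall, the 10 genes of highest correlation and up to 4 called genes a list. The members, lists and tests were chosen with earlier results of these data known. Plate numbers did not pair plates: the median correlation of deviations was 0.0017 for RANKL plates of the same number and 0.000445 for others.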

Additional observations from a re-analysis of the deposited data

Results flagged for a closer look

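The change from day 3 to day 6 differed between the arms for 8 members, by a test of the difference of changes that was added after the data had been seen (edgeR, adjusted over 8766 genes). With CSRM617 the log2 change was below that with RANKL alone by -1.47 for Pcna, -2.44 for Mcm6, -2.48 for Mcm7, -2.64 for Atad2, -2.73 for Uhrf1, -3.94 for Lig1 and -4.15 for Mcm3. Mcm5 had a fitted value of -8.70, which is no bound because it had no UMI on day 6 with CSRM617. On day 6 with CSRM617, Mcm3 and Lig1 each had 1 UMI and Uhrf1 had 3. None of the 8 passed when plate 1 of day 6 with CSRM617 was left out.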

How the results depend on the processing

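Counts of called members were recomputed under each alternative. RANKL day 3 against day 1 (36) ran from 24 to 36 over settings and from 31 to 34 when 1 plate was left out, and day 6 against day 3 (26) from 23 to 28 and from 24 to 26. Day 1 against day 0 (9) ran from 3 to 12 without 1 plate, the omnibus count (40) from 31 to 37 without all plates of 1 replicate number, and day 9 against day 6 stayed at 0. In the RANKL+CSRM617 arm day 3 against day 1 (18) gave 9 in DESeq2, 3 with each cell weighted equally and 5 to 11 without 1 plate; day 1 against day 0 gave 0 to 1. Between arms, days 1 to 3 (10) gave 6 with each cell weighted equally and 9 to 12 without 1 plate; days 4 to 6 (27) gave 8 on days 4 and 5 alone and 20 to 27 without 1 plate, and there Esco2 alone among named members turned sign (0.16 on days 4 and 5 alone). Weighting cells equally also moved the median of all genes on days 4 to 6 from -0.12 to -0.29. The change from day 0 to days 1 to 3 (0) gave 1 in DESeq2 and 0 to 1 without 1 plate, and that from day 3 to day 6 (8) gave 4 in DESeq2, 13 with each cell weighted equally, 1 with cells of 2000 or more UMIs and 0 to 8 without 1 plate. Spib in RANKL (13) gave 6 in DESeq2, 27 with 2 or more Spib UMIs and 10 to 19 without 1 plate; Spib with CSRM617 (4) gave 18 without a filter, 8 with 2 or more Spib UMIs and 0 to 8 without 1 plate; Lgr5 (36) gave 34 to 38 without 1 plate, and 31 at matched depth to 42 without a filter over settings, as the number tested changed. The causes were not tested. The replicate block, on plate numbers that did not pair the plates, gave 10, 36, 26 and 0 in the RANKL steps, 0, 14 and 0 with CSRM617, and 0, 11, 26, 0 and 8 between arms. The ratio of the share of cells with 3 or more member UMIs on day 3 to day 1 (0.448) was 0.548 with 2 UMIs, 0.363 with 5 and 0.568 at a depth of 2000; day 7 to day 3 (2.51) 2.09, 3.02 and 2.07; and CSRM617 to RANKL on day 6 (0.108) 0.271, 0.143 and 0.256. Of 2201 repeats for named members, 1971 kept call and direction, 229 lost the call and 1 turned. Day 6 with CSRM617, at 108 cells, limits all values that rest on it.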
